A study of Mus musculus with 4 samples.

Results

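The oocyte and maternal-effect transcripts described here are Khdc3, Ooep, Tcl1, Padi6, Nlrp5, Tle6, Zbed3, Zp2, Zp3 and Gdf9, 10 genes chosen by name. Of these, 9 have a row in the deposited table of 21470 genes, and Nlrp5 (ENSMUSG00000015721), an NLR-family protein of the oocyte cortex, is not analysed here. RNA was measured in wild-type (WT) mouse embryos from B6D2F1 males crossed with ICR females, after dissection into an embryonic side (inner cell mass, ICM) and an extra-embryonic side (trophectoderm, TE). The 4 groups of 5 libraries were D10 ICM, E4 ICM, D10 TE and E4 TE. The title of the series contrasts times before and after diapause, the reversible arrest of the blastocyst before implantation. In the deposited list of barcodes the E4 libraries carry the word before and the D10 libraries day 6, while the protocol describes every embryo as one in diapause, so the sources conflict over E4. The sources used here do not state how diapause was brought about or how many embryos went into a library. A p-value measures only how far these libraries spread, and each library of a group came from a litter of its own. Differences between litters and technical spread cannot be told apart here. The D10 libraries came from 5 litters without a zona pellucida, the glycoprotein coat around the egg, and the E4 libraries from 5 other litters, 2 with a zona and 3 without. ICM and TE libraries of the same number within a time came from the same litter.

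Fully grown oocytes store transcripts that the embryo uses before its own genome is active, and most of these stores are degraded during the first cleavages. Maternal-effect genes are those whose product, laid down by the mother, the embryo needs. The proteins of the subcortical maternal complex, a lattice under the oocyte membrane built from the products of Ooep, Nlrp5, Tle6, Khdc3 and further genes, persist through cleavage. Some members, Khdc3 (also called Ecat1) and Tcl1 among them, are also transcribed in pluripotent cells of the mouse, so their RNA in a blastocyst need not come from the egg.

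Total counts ran from 144276 to 1010354 per library. The labelled tissues were checked with marker genes: Sox2, an epiblast transcription factor, had 470 counts in the 5 D10 ICM libraries, 421 in E4 ICM, 0 in D10 TE and 1 in E4 TE. A list of 10 trophectoderm genes summed to between 3547 and 5661 CPM in D10 ICM (CPM, counts scaled to library size with TMM factors) and between 2157 and 3030 CPM in E4 ICM. It summed to between 7436 and 10090 CPM in D10 TE and between 7072 and 8066 CPM in E4 TE, so genes of that list had counts in every ICM library. A list of 12 epiblast genes summed to 1518 to 2442 CPM in D10 ICM and 565 to 1085 CPM in D10 TE. At E4 the tissues overlapped, at 2951 to 4501 CPM in ICM and 1059 to 3676 CPM in TE. Dppa5a of this list averaged 834 CPM in E4 ICM and 2250 CPM in E4 TE. A list of 10 primitive endoderm genes summed to 6155 to 8776 CPM in D10 ICM and 1661 to 3998 CPM in E4 ICM. In TE it summed to 409 to 1323 CPM at D10 and 209 to 558 CPM at E4. The replicates of a group were mixed before PCR, so amplification pool and group cannot be told apart. In tissue pieces such as these, fewer cells of a type and less RNA per cell cannot be told apart.

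Promoter sequence is shown for Khdc3, which was lower at D10 in both tissues, for Padi6, which has an E-box at the same distance from its start, and for Zp3, whose counts were all in ICM. An E-box is the pattern CANNTG, which reads the same on both strands and which basic helix-loop-helix factors such as the oocyte factor FIGLA bind. The sequences are bases before the start annotated by RefSeq on GRCm38.p6, 5′ to 3′ on the gene's strand, and capitals mark E-boxes. They cover chr9:73102278-73102397 (plus strand) for Khdc3, chr4:140742644-140742763 (minus) for Padi6 and chr5:135979985-135980098 (plus) for Zp3. The Zp3 sequence stops 6 bases short of the RefSeq start.
Khdc3: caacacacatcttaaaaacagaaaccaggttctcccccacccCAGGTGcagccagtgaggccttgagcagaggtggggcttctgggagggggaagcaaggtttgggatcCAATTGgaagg
Padi6: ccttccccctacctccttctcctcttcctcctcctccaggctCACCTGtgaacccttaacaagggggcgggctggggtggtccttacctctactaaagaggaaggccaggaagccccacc
Zp3: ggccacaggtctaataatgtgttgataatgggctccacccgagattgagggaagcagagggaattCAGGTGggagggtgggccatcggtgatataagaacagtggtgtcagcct

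The set of RefSeq promoters used here covered 8 of the 10 members (not Zp2 or Gdf9). An E-box began 78 bases before the RefSeq start in Khdc3, Ooep and Padi6, a shared position that was noticed in these sequences and not searched for in advance. Over all 32851 promoters in that set, 159 (0.484%) had an E-box beginning at that base, and 72.3% had one anywhere in their 300 bases. In these 300 bases Khdc3 had 5 E-boxes, Zp3 had 4, Padi6 had 2, and Ooep and Tcl1 had 1 each. The E-box in the Zp3 sequence shown began 55 bases and that of Tcl1 21 bases before the RefSeq start. These distances depend on the annotation: the GENCODE start used for the gene positions is the same for Padi6 but lies upstream of the RefSeq start by 562 bases in Khdc3, 137 in Ooep, 56 in Tcl1 and 6 in Zp3. By GENCODE the Khdc3 sequence lies inside the gene and outside its exons. These matches describe letters and not binding.

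**Figure D1:**
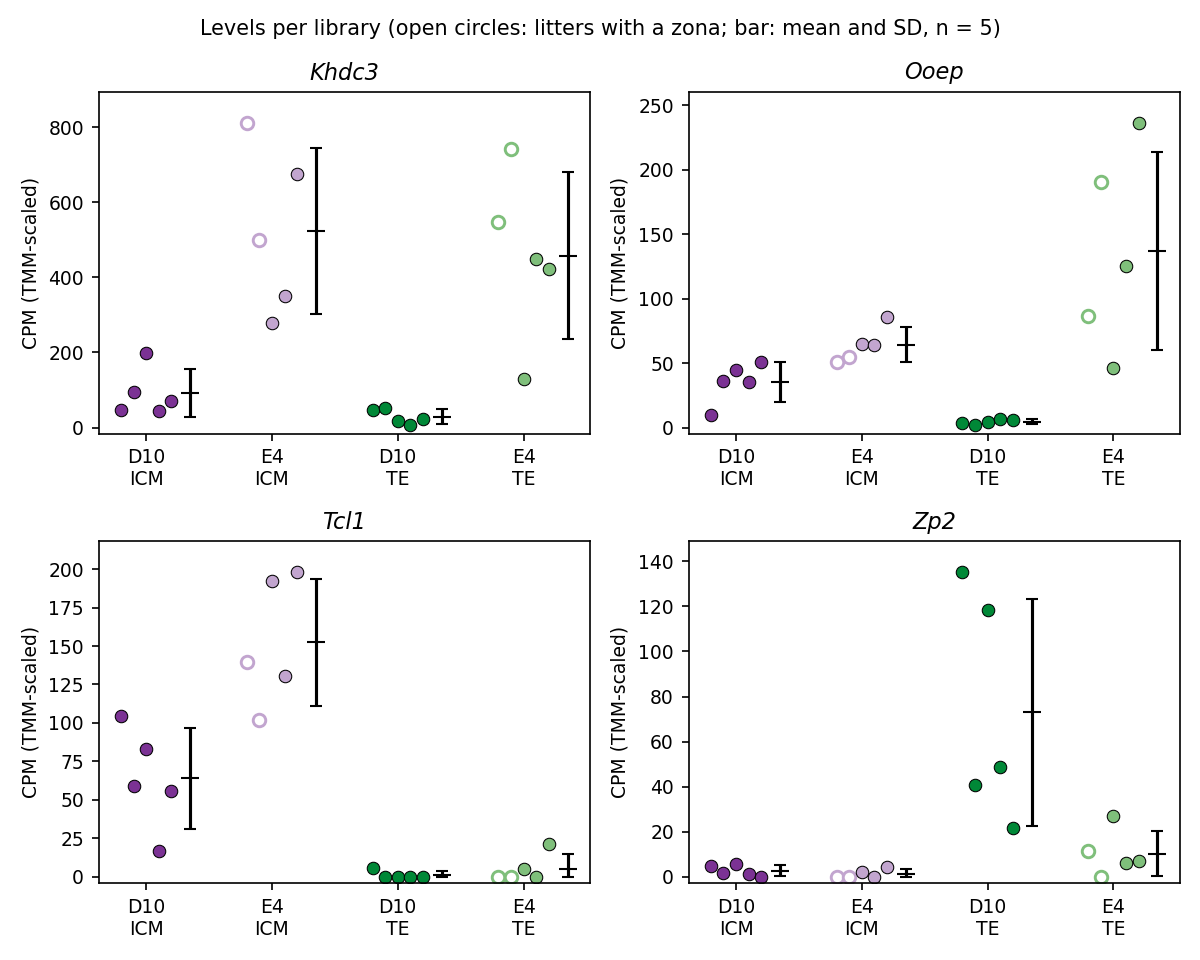
TMM-scaled CPM of Khdc3, Ooep, Tcl1 and Zp2 in each library (points, on a linear axis of its own for each gene), with the mean and SD of the 5 libraries beside them. The SD bar stops at 0 where it would pass below it. Khdc3 and Ooep were lowest in D10 TE, Tcl1 was confined almost wholly to ICM, and Zp2 was highest in D10 TE.

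Between D10 and E4, the question the series title poses, Khdc3 RNA was lower at D10 on both sides of the embryo, Ooep RNA was lower in TE, and Tcl1 RNA was lower in ICM. Only these 3 members passed the filter on low counts (a minimum of 10 in filterByExpr), so they are not all members. Of them, 2 were called lower and 0 higher in ICM (Khdc3 and Tcl1), where 9.97% of the 6943 genes tested were called lower. In TE also 2 were lower and 0 higher (Khdc3 and Ooep), against 9.89% of genes called lower. A call is an adjusted p under 0.05 in edgeR's quasi-likelihood test, adjusted by Benjamini-Hochberg over all genes tested. The median log2 difference of the 3 was -1.38 in ICM and -3.95 in TE, beside medians of -0.00306 and 0.02 over all genes tested.

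Khdc3 (ENSMUSG00000092622, chr9:73101836-73104438, plus strand, GRCm38) encodes a KH-domain protein of the complex, known as FILIA, that is needed for faithful chromosome segregation in early mouse embryos. The D10 ICM libraries had 47.5, 93.9, 199, 44.1 and 69.7 CPM of Khdc3 in replicates 1 to 5, and the E4 ICM libraries 811.5, 499, 278, 352 and 675 CPM. In TE the D10 libraries had 45.6, 53.0, 18.1, 6.99 and 21.9 CPM, and the E4 libraries 547, 742, 129, 450.2 and 422 CPM. Every D10 library lay below every E4 library of its tissue. The log2 difference was -2.58 ± 0.44 (SE) in ICM (adjusted p = 0.000212) and -3.95 ± 0.48 in TE (adjusted p = 2.16e-06), and both kept their call whichever library was left out. In the annotation 790 of the 2050 exonic bases of Khdc3 are shared with Gm20509 on the same strand, so which of the transcripts gave these reads cannot be told apart.

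Ooep (ENSMUSG00000032346, chr9:78376109-78378725, minus strand) encodes FLOPED, a KH-domain protein without which the complex does not form in mouse eggs. Its level in D10 TE was 3.65, 2.04, 4.01, 6.99 and 5.46 CPM, from 11 counts in all, and in E4 TE 86.3, 191, 46.3, 126 and 236 CPM, from 176 counts. The TE groups did not overlap, with a log2 difference of -4.80 ± 0.55 (adjusted p = 2.73e-08). The 12 epiblast genes summed to 565 to 1085 CPM (median 611) in D10 TE and 1059 to 3676 CPM (median 2486) in E4 TE. Of them, 1 was called higher and 1 lower at D10, against 11.9% of all genes higher and 9.89% lower. Most of the epiblast sum was 1 gene, Dppa5a, which averaged 594 ± 214 CPM in D10 TE and 2250 ± 915 CPM in E4 TE (SD). In E4 ICM Dppa5a averaged only 834 ± 142 CPM. Sox2 had 0 counts in D10 TE and 1 in E4 TE, and Nanog 4 and 10. The part of the 12 genes in the TE differences of Ooep and Khdc3 was not tested. In D10 ICM Ooep stood at 9.51, 36.3, 44.3, 35.7 and 51.1 CPM, against 50.7, 54.8, 64.9, 64.1 and 86.0 CPM in E4 ICM. These groups met at 1 library each, and the difference of -0.85 ± 0.37 did not pass (adjusted p = 0.0953). The change in ICM minus the change in TE was itself tested for Ooep: it was 3.94 ± 0.67 (adjusted p = 0.000147), where 3.15% of genes were called higher in this test. Ooep was the 1 member called there. The value was 4.09 (adjusted p = 0.0557) when all libraries were thinned to 1 total.

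The same test for Khdc3 gave 1.36 ± 0.65 (adjusted p = 0.248), so a difference between its falls in ICM and TE was not shown with the filter. Without the low-count filter it was 1.37 and passed (adjusted p = 0.0207, with 1.71% of genes called higher). The 2 fits can differ widely in p. For Khdc3 in TE the adjusted p was 4.06e-38 without the filter and 2.16e-06 with it, at log2 differences of -3.92 and -3.95.

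Tcl1 (ENSMUSG00000041359, chr12:105216750-105222793, minus strand) encodes a coactivator of AKT kinases found in mouse oocytes, early embryos and embryonic stem cells. The D10 ICM libraries had 105, 59.3, 83.1, 16.8 and 55.7 CPM of Tcl1, and the E4 ICM libraries 139, 102, 192, 130.3 and 198 CPM. Of the D10 libraries, replicate 1 lay above the lowest E4 library and the other 4 below all of them. The log2 difference was -1.38 ± 0.41 (adjusted p = 0.0186). This call was lost without E4 ICM replicate 3 (-1.24, adjusted p = 0.0562), E4 ICM replicate 5 (-1.25, adjusted p = 0.0538) or D10 ICM replicate 4 (-1.04, adjusted p = 0.0548). With libraries thinned to 1 total it was -0.82 (adjusted p = 0.309). Marker genes also differed between D10 and E4 in ICM, in both directions. Of 12 epiblast genes, 7 were called lower and 0 higher at D10, against 9.97% of all genes lower, with summed levels of 1518 to 2442 CPM in D10 ICM and 2951 to 4501 CPM in E4 ICM. Of 10 primitive endoderm genes 9 were tested, with 4 higher and 1 lower at D10, against 13.7% of all genes higher, and summed levels of 6155 to 8776 CPM in D10 ICM and 1661 to 3998 CPM in E4 ICM. The part of these markers in the differences of Tcl1 and Khdc3 was not tested.

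**Figure D2:**
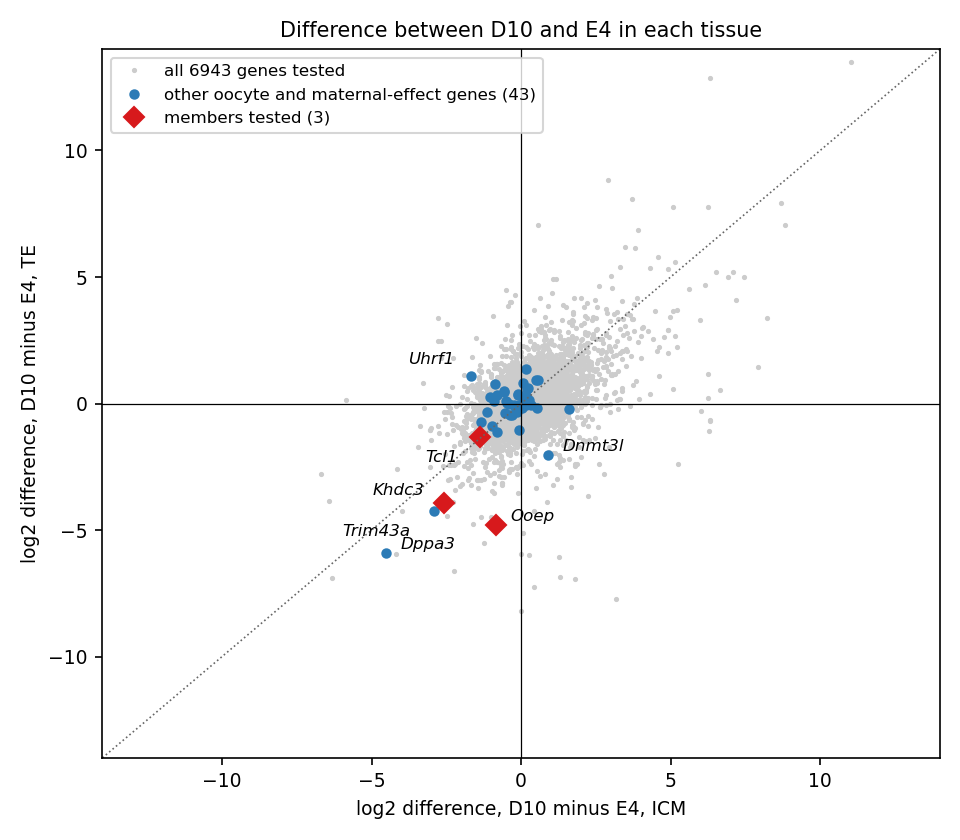
Log2 difference between D10 and E4 in ICM (x axis) and in TE (y axis) for all 6943 genes tested (grey), the 43 other oocyte and maternal-effect genes tested (blue) and the 3 members tested (red diamonds), with the dotted line where both are equal. Khdc3 lies at -2.58 and -3.95 and Ooep at -0.85 and -4.80, while most of the blue points lie near 0 on both axes.

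Zp2 (ENSMUSG00000030911, chr7:120126772-120145291, minus strand), a zona glycoprotein that binds sperm, had most of its counts in D10 TE, where the 5 libraries held 189 of its counts, against 17 counts in E4 TE, with 4 counts for D10 ICM and 2 for E4 ICM. By library the D10 TE counts were 74, 20, 59, 28 and 8, or 135, 40.8, 118, 48.9 and 21.9 CPM. The E4 TE counts were 2, 0, 11, 3 and 1, or 11.5, 0, 26.8, 5.98 and 7.15 CPM. The lowest D10 library lay below the highest E4 library, and the other 4 D10 libraries lay above all E4 ones. The ratio of pooled CPM was 6.37 (95% exact interval 3.88 to 11.2, counting error only). Zp2 missed the filter. A minimum count of 5 was an alternative added after its counts were seen, and Zp2 could pass it only through D10 TE, where it is high. An adjusted p from that fit is therefore not separate support for a high level there. With this minimum its log2 difference in TE was 2.66 ± 0.60 (adjusted p = 0.00105), where 10.5% of 8875 genes were called higher. Without any filter it was 2.66 (adjusted p = 1.85e-07) with 5.11% of 20558 genes called higher, and between 2.32 and 3.64 with any 1 library left out, the highest without E4 TE replicate 3. An exact two-sided permutation test of mean CPM gave p = 0.0159, unadjusted, 1 of 7 such tests run on Zp2 and Zp3, whose smallest possible p is 0.00794.

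No annotated gene lies within 5000 bases of Zp2. Summed levels of 14 uterus and oviduct genes, 11 of them with a row, ran from 22.7 to 54.8 CPM (median 24.6) in D10 TE. In E4 TE they ran from 0 to 167 CPM (median 4.15), with the 167 CPM in replicate 1. In ICM they ran from 4.64 to 83.1 CPM (median 16.5) at D10 and from 2.32 to 12.7 CPM (median 6.20) at E4. Ltf, Hoxa10, Pgr, Col1a1 and Ovgp1 were at 0 in D10 TE. Prss28 had 16 counts in D10 TE and 0 in E4 TE, and Sprr2f 11 and 0. Ovgp1 had 18 counts in E4 TE, and Calb1 had 3 in D10 TE and 13 in E4 TE. Muc1, a mucin also of the uterine lining, averaged 20.6 ± 6.39 CPM in D10 TE and 0.797 ± 1.78 CPM in E4 TE (SD, n = 5 each). In ICM Muc1 averaged 15.2 ± 10.0 CPM at D10 and 3.42 ± 2.38 CPM at E4. Cumulus and granulosa genes, 3 of 10 with a row, summed to between 0 and 1.83 CPM in D10 TE and to 0 in E4 TE. A list of 9 other germ cell genes, 5 with a row, summed to between 2.73 and 32.9 CPM in D10 TE and between 4.15 and 9.96 CPM in E4 TE. Its meiotic gene Sycp1 averaged 19.0 ± 9.94 CPM in D10 TE and 3.78 ± 3.49 CPM in E4 TE. The highest mean of Sycp1 was in E4 ICM (26.6 ± 36.0 CPM, with 1 library at 90.3 CPM), with 4.17 ± 5.76 CPM in D10 ICM. Its median was highest in D10 TE, at 22.4 CPM against 13.1 CPM in E4 ICM. The part of these genes' source cells in the Zp2 counts was not tested.

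Zp3 (ENSMUSG00000004948, chr5:135980099-135988624, plus strand), the other zona glycoprotein among the members, did not follow Zp2: its 27 counts were all in ICM. Replicates 1 to 5 had 0, 2, 0, 4 and 1 counts of Zp3 in D10 ICM and 0, 3, 9, 1 and 7 in E4 ICM, and all 10 TE libraries had 0. The ratio of pooled CPM, D10 over E4 in ICM, was 0.237 (95% exact interval 0.0846 to 0.583). Over libraries it did not pass: the fit without the filter gave -1.87 (adjusted p = 0.165) and the exact permutation test p = 0.167, unadjusted.

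The remaining members were near the limit of detection, where 3 counts over a whole group amount to 1.28 CPM for D10 ICM, 1.90 CPM for E4 ICM, 1.12 CPM for D10 TE and 1.95 CPM for E4 TE (without TMM factors). Tle6 (ENSMUSG00000034758, chr10:81590904-81601073, minus strand), a Groucho-family member of the complex, had 10 counts in D10 ICM, 1 in E4 ICM, 6 in D10 TE and 3 in E4 TE. Its D10 ICM counts were 0, 6, 0, 3 and 1, and its ratio to E4 ICM was 6.76 with an interval of 0.962 to 293. Zbed3 (ENSMUSG00000041995, chr13:95323612-95337841, plus strand), a zinc-finger protein found with the complex in mouse oocytes, had 9 counts in D10 ICM, 5 in E4 ICM, 9 in D10 TE and 0 in E4 TE. In TE it was at least 1.72-fold higher at D10, taking 3 counts over the group for E4 TE. Without the filter, neither Tle6 in ICM (2.40, adjusted p = 0.21) nor Zbed3 in TE (3.63, adjusted p = 0.101) passed.

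Padi6 (ENSMUSG00000040935, chr4:140727355-140742643, minus strand), a peptidylarginine deiminase-family protein needed for the cytoplasmic lattices of the mouse oocyte, had 3 counts in E4 ICM, 1 in D10 TE and 0 in both other groups. Gdf9 (ENSMUSG00000018238, chr11:53431023-53437904, plus strand), a growth factor that oocytes secrete to the granulosa cells around them, had 0 counts in D10 ICM, 2 in E4 ICM, 1 in D10 TE and 1 in E4 TE. For both genes no difference was detectable at this depth.

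**Figure D3:**
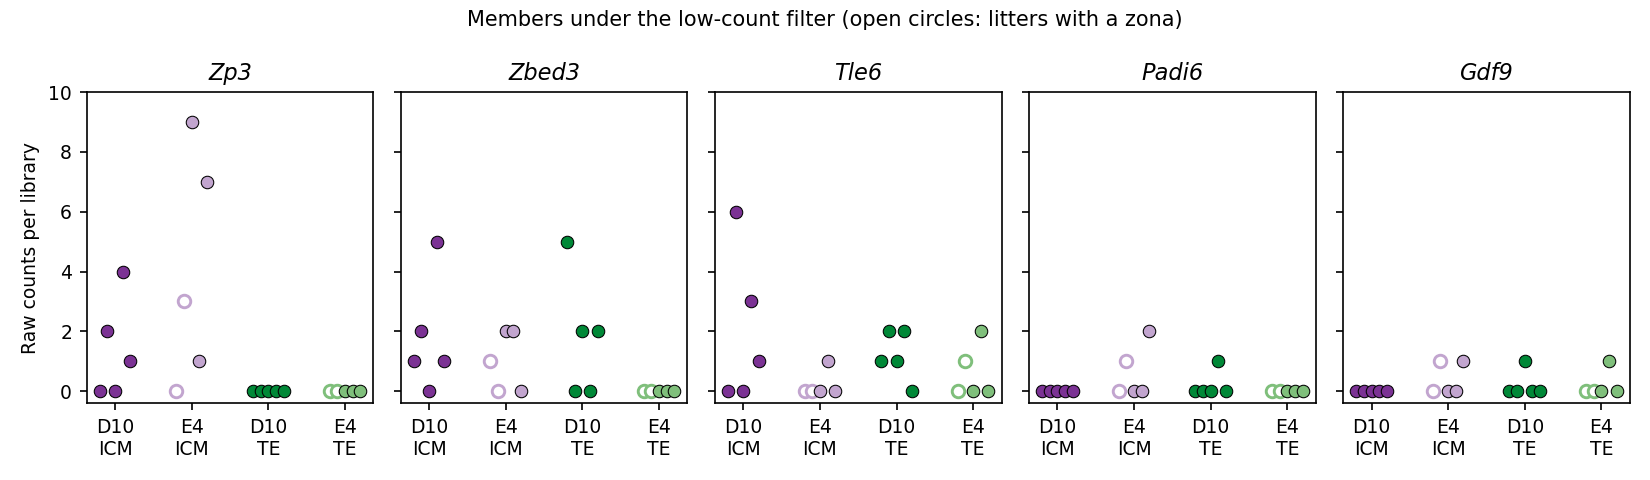
Raw counts per library of Zp3, Zbed3, Tle6, Padi6 and Gdf9, with 1 point a library and open circles for E4 litters with a zona. No library had more than 9 counts of any of them, and Zp3 was at 0 in all TE libraries.

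Between the tissues, ICM against TE, members differed in opposite directions. At D10 all 3 tested members were called higher in ICM, where 12.9% of genes were called higher. At E4 Tcl1 was higher in ICM and Ooep lower, where 15.8% of genes were called higher and 15.4% lower.

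Tcl1 was nearly restricted to ICM at both times. The D10 TE libraries held 3 counts, all in replicate 1 (5.48 CPM), and the E4 TE libraries 5 counts, at 4.87 CPM in replicate 3 and 21.5 CPM in replicate 5. The pooled ratio of ICM to TE was 38.7 at D10 (95% exact interval 12.9 to 191) and 49.3 at E4 (20.8 to 153). The log2 differences were 5.26 ± 1.17 at D10 (adjusted p = 5.66e-06) and 5.31 ± 0.92 at E4 (adjusted p = 1.46e-06), and ICM was higher in 5 of 5 litters at each time. In D10 TE, Tdh, an enzyme gene of the epiblast, had counts in the same replicate 1 (18.3 CPM) and in no other D10 TE library. Sox2 had 0 counts in D10 TE, and the 12 epiblast genes summed to 611 CPM in replicate 1, the median of the group. The 10 primitive endoderm genes summed to 1323 CPM in that replicate and to between 409 and 674 CPM in the other D10 TE libraries. In E4 TE they summed to 558 CPM in replicate 5, the highest of the group, and to 209 CPM in replicate 3, the lowest. The part of ICM cells in the Tcl1 counts of TE was not tested. In E4 TE the 1 count of Tdh was in replicate 1, where Tcl1 had 0. Without D10 TE replicate 1 Tcl1 had 0 counts in D10 TE. The fitted log2 difference at D10 was then 7.49, a value that depends on the prior count. Without E4 TE replicate 5 the E4 difference was 6.36.

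Ooep had the opposite order at the 2 times. At D10 its mean was 35.4 ± 15.8 CPM in ICM and 4.43 ± 1.88 CPM in TE (SD, n = 5 each), a log2 difference of 2.91 ± 0.57 (adjusted p = 8.24e-05), with ICM higher in 5 of 5 litters and no overlap. With libraries thinned to 1 total this was 2.44 (adjusted p = 0.0722). At E4 the means were 64.1 ± 13.6 CPM in ICM and 137 ± 76.9 CPM in TE, a difference of -1.03 ± 0.34 (adjusted p = 0.0208), with ICM higher in 1 of 5 litters. The E4 call was lost without E4 TE replicate 2 (-0.90, adjusted p = 0.0567) or replicate 5 (-0.82, adjusted p = 0.0661). It was also lost with limma voom (-0.78, adjusted p = 0.0790), with thinned libraries (-1.65, adjusted p = 0.0854) and without the litters that had a zona (-0.87, adjusted p = 0.161).

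Khdc3 averaged 90.9 ± 63.9 CPM in D10 ICM and 29.1 ± 19.4 CPM in D10 TE (SD, n = 5 each), with ICM higher in 5 of 5 litters and a log2 difference of 1.55 ± 0.51 (adjusted p = 0.0260). That call was lost without D10 ICM replicate 2 (1.51, adjusted p = 0.0534) or 3 (1.13, adjusted p = 0.101). It was lost too without D10 TE replicate 3 (1.41, adjusted p = 0.0643), 4 (1.28, adjusted p = 0.0717) or 5 (1.49, adjusted p = 0.0503), and in thinned libraries (1.48, adjusted p = 0.100). At E4 the means were 523 ± 222 CPM in ICM and 458 ± 223 CPM in TE, and the difference of 0.18 ± 0.41 did not pass (adjusted p = 0.768), with ICM higher in 3 of 5 litters.

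Zp2 was lower in ICM than in TE at D10, with 1, 1, 1, 1 and 0 counts in the ICM libraries beside the TE counts given above, and the pooled ratio of TE to ICM was 41.1 (95% exact interval 15.8 to 153). With a minimum count of 5, which Zp2 could pass only through D10 TE, the log2 difference was -5.06 ± 0.98 (adjusted p = 4.94e-06, with 10.9% of genes called lower). TE was higher in all 5 litters. At E4 the log2 difference was -2.97 ± 1.39 (adjusted p = 0.0300, with 13.5% of genes called lower). Without the filter and without E4 TE replicate 3, which held 11 of the 17 counts, the E4 difference was -2.0 (adjusted p = 0.243), and the exact permutation test at E4 gave p = 0.0556, unadjusted.

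Zp3 was at least 2.68-fold higher in ICM than in TE at D10 and at least 6.49-fold higher at E4, each against 3 counts over the TE group. In the fit without the filter the E4 difference passed (adjusted p = 0.00146, with 6.0% of genes called higher, exact permutation p = 0.0476, unadjusted). The D10 difference had an adjusted p of 0.0455, with 7.17% of genes called higher. It was lost without D10 ICM replicate 2, 4 or 5 or without any 1 of the 5 D10 TE libraries (adjusted p up to 0.144), and with litter as a block (adjusted p = 0.244).

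**Figure D4:**
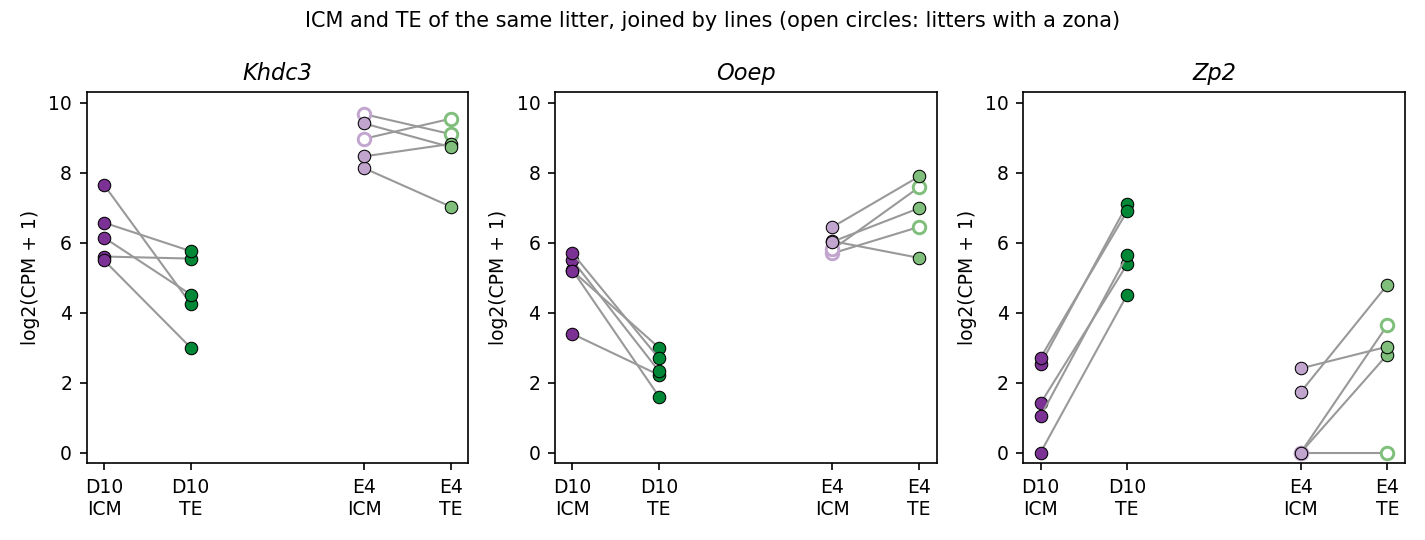
Levels of Khdc3, Ooep and Zp2 as log2(CPM + 1) in ICM and TE of each litter, joined by a line, with open circles for litters with a zona. At D10 the lines of Khdc3 and Ooep all fall toward TE and those of Zp2 all climb, and at E4 those of Khdc3 cross while 4 of 5 for Ooep climb.

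The zona of the E4 litters could be compared only within E4. Over all genes 0 of 8127 were called in ICM by edgeR (410 at an unadjusted p under 0.05, 0 by DESeq2, 1 by limma voom) and 1 in TE, Ccng2, which is 0.0123% (565 unadjusted, 6 by DESeq2, 2 by limma voom). Of the members, 4 were tested and 0 called in either tissue. Khdc3 averaged 655 ± 221 CPM in E4 ICM with a zona (SD, n = 2) and 435 ± 211 CPM without (n = 3), a log2 difference of 0.61 ± 0.55 (edgeR adjusted p = 1). In E4 TE it averaged 645 ± 138 CPM with a zona (n = 2) and 334 ± 177.9 CPM without (n = 3), a difference of 0.96 ± 0.56 (edgeR adjusted p = 0.798). Ooep averaged 139 ± 73.9 CPM in E4 TE with a zona (n = 2) and 136 ± 95.4 CPM without (n = 3), a difference of 0.16 ± 0.47 (edgeR adjusted p = 0.985).

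The counts of the zona genes were few in either kind of litter, and no difference passed. The 2 zona litters held 0 Zp2 counts in E4 ICM and 2 in E4 TE, and the 3 litters without held 2 and 15. The log2 difference of Zp2 in E4 TE was -1.50 (edgeR adjusted p = 0.896). Zp3 had 3 counts in E4 ICM with a zona and 17 without, a ratio of pooled CPM of 0.379 (95% exact interval 0.0713 to 1.31). Since all D10 litters lacked a zona, the D10 and E4 comparison was repeated without the 2 zona litters. Khdc3 was then -2.29 in ICM (adjusted p = 0.00358) and -3.51 in TE (adjusted p = 9.58e-05), Ooep in TE -4.76 (adjusted p = 1.46e-06) and Tcl1 in ICM -1.53 (adjusted p = 0.0338).

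Across the 20 libraries Khdc3 and Ooep had a Pearson correlation of log2 CPM of 0.843, against 0.398 for Khdc3 with Tcl1 and 0.291 for Ooep with Tcl1, with libraries of a group sharing a pool. The genes most like Khdc3 were Snrpe (0.919), a core protein of spliceosomal particles, Vdac1 (0.913), a channel of the outer mitochondrial membrane, and Dppa3 (0.902). Those most like Ooep were Kalrn (0.905), Ppp1cc (0.869) and Snrpe (0.868). Ppp1cc, a catalytic subunit of protein phosphatase 1, averaged 1.12 ± 1.02 CPM in D10 TE and 98.3 ± 17.1 CPM in E4 TE, and 22.0 ± 10.1 CPM in D10 ICM and 21.1 ± 4.08 CPM in E4 ICM (SD, n = 5 each). The genes most like Tcl1 were Zscan10 (0.970), a zinc-finger factor of pluripotent cells, Ube2l6 (0.964) and Upp1 (0.954), a uridine phosphorylase.

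Further oocyte and maternal-effect genes were taken from lists of 140 names, of which 89 had a row, 24 of those with 10 or fewer counts over all libraries, and 43 were tested. Between D10 and E4, 2 were called higher and 12 lower in ICM (median -0.18), and 5 higher and 6 lower in TE (median -0.02), beside the medians over all genes given above. Over all genes tested 13.7% were called higher and 9.97% lower in ICM, and 11.9% higher and 9.89% lower in TE, so that the counts in TE are near the background. Between tissues, 8 were higher and 2 lower in ICM at D10, and 9 higher and 2 lower at E4, against 12.9% of all genes higher and 12.6% lower at D10 and 15.8% higher and 15.4% lower at E4.

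Dppa3 (Stella), a maternal factor that protects DNA methylation in the zygote, had the lowest log2 differences over time among the 43 in both tissues. It averaged 34.6 ± 14.7 CPM in D10 ICM and 756 ± 459 CPM in E4 ICM, and 7.24 ± 9.03 CPM in D10 TE and 427 ± 279 CPM in E4 TE (SD, n = 5 each). Its log2 differences were -4.51 ± 0.64 in ICM (adjusted p = 2.90e-05) and -5.92 ± 0.89 in TE (adjusted p = 3.98e-06). Trim43a, one of several near-identical copies and so uncertain, was also lower at D10 in both, by log2 differences of -2.91 ± 0.57 and -4.24 ± 0.90.

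Of 16 genes whose products are known or proposed to act with the complex or its NLRP relatives, 12 had a row and 6 were tested. Uhrf1, which recruits the maintenance methyltransferase to replicating DNA, was lower at D10 in ICM (-1.68 ± 0.32, adjusted p = 0.00048), and Ywhaz, a 14-3-3 protein, was lower in ICM (-0.98 ± 0.21) and TE (-0.90 ± 0.21). Ube2d3, a ubiquitin-conjugating enzyme, was the third lower gene in ICM (-0.47 ± 0.17, adjusted p = 0.0436), where 9.97% of all genes were called lower. The call of Ube2d3 was lost in 19 of the 20 fits that left out 1 library (adjusted p up to 0.138). Nlrp4c, which was singled out after its counts were seen and was not tested, had 1 count in D10 ICM, 33 in E4 ICM, 1 in D10 TE and 13 in E4 TE.

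Among 33 maternal chromatin regulators, 24 were tested, with 2 higher and 6 lower at D10 in ICM and 4 higher and 3 lower in TE, beside the same shares over all genes (13.7% and 9.97% in ICM, 11.9% and 9.89% in TE). Dnmt3l, a cofactor of the de novo DNA methyltransferases, was lower at D10 in TE (-2.03 ± 0.34, adjusted p = 9.51e-05), and its change in ICM minus that in TE was 2.93 ± 0.45 (adjusted p = 0.000141). Dnmt3a, one of those methyltransferases, was lower in TE as well (-1.13 ± 0.33, adjusted p = 0.0147). Kdm5b (-1.13 ± 0.25), Dcaf1 (-1.35 ± 0.33) and the Polycomb gene Eed (-0.80 ± 0.20) were lower at D10 in ICM. At E4, Trim28 (1.54 ± 0.18), Eed (1.31 ± 0.21), Ezh2 (1.29 ± 0.27) and Kdm5b (1.06 ± 0.25) were higher in ICM than in TE. With libraries thinned to 1 total, Uhrf1, Ywhaz, Kdm5b and Eed over time in ICM, Dnmt3a over time in TE, and Eed, Ezh2 and Kdm5b between tissues at E4 did not pass (adjusted p between 0.0602 and 0.508).

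Relatives of the members by sequence did not share 1 direction. Dppa5a, a KH-domain relative of Khdc3 and Ooep with pseudogene copies and so uncertain, averaged 594 ± 214 CPM in D10 TE and 2250 ± 915 CPM in E4 TE (SD, n = 5 each; log2 difference -1.92 ± 0.34, adjusted p = 0.000303). Khdc1c, a further KH-domain gene of a multicopy family and also uncertain, was lower in ICM than in TE at D10 (-2.46 ± 0.73, adjusted p = 0.00887) and at E4 (-2.28 ± 0.81, adjusted p = 0.0263). With limma voom neither of these calls of Khdc1c was kept (adjusted p = 0.123 at D10 and 0.0988 at E4), and both were lost with single libraries left out (D10 TE replicate 4 at D10, adjusted p = 0.0643, and any of 6 libraries at E4, adjusted p up to 0.0733). Tle5, a short relative of Tle6, was higher at D10 in TE (2.58 ± 0.36, adjusted p = 4.93e-06). Gdf3, a TGF-beta-family ligand of pluripotent cells and a relative of Gdf9, was at 29.7 ± 5.52 CPM in D10 ICM and 89.7 ± 31.9 CPM in E4 ICM, against 0 CPM in D10 TE and 0.830 ± 1.85 CPM in E4 TE.

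Summed over the members, the 9 genes made up 158 CPM of the pooled counts in D10 ICM, 734 CPM in E4 ICM, 109 CPM in D10 TE and 529 CPM in E4 TE (without TMM factors). Khdc3, Ooep and Tcl1 held 91.8% of these counts in D10 ICM, 97.2% in E4 ICM and 97.4% in E4 TE, but 29.5% in D10 TE, where Zp2 alone held 64.7%.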

How the data were processed

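The values were raw counts per gene and barcoded library, taken from a single table that the authors deposited (21470 genes, 912 without any count). Per the labels' protocols the libraries were made by BRB-seq, which reads the 3′ ends of polyadenylated RNA. Tools listed in the submitters' processing notes, in no stated role, include featureCounts 2.0.1, HISAT2 2.2.1, Trim Galore 0.6.7 and UMI-tools. The sources used here do not state UMI collapse, strand setting or annotation, so intervals and floors (3 counts) cover counting error only. No library column was left out.

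Tests used edgeR 4.0.16 in R 4.3.3 (quasi-likelihood, TMM, 1 fit of 4 groups, 6943 genes, Benjamini-Hochberg, threshold 0.05), and for the zona 1 fit of 6 groups (8127 genes). SEs are Wald SEs of that model. The test was checked on simulated data. Members under the filter are given by counts, the ratio of pooled counts with a 95% Clopper-Pearson interval, and the fit without the filter. Alternatives were RLE scaling, other count minimums (5, 30 or none), DESeq2 1.42.0, limma 3.58.1 voom, libraries thinned to the smallest total, litter as a block, zona litters left out, and each library left out. Litters pair ICM and TE libraries, per the deposited barcode list: same-litter deviations correlated by 0.168 on average at D10 and 0.177 at E4.

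Gene positions are from GENCODE M21. All members are named, with up to 4 genes with the smallest adjusted p per list and comparison, and the 3 genes most correlated with each tested member. The members and lists were chosen with earlier results of these data known.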

Additional observations from a re-analysis of the deposited data

Results flagged for a closer look

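The D10 minus E4 change of Ooep differed between ICM and TE, by 3.94 on the log2 scale (edgeR adjusted p = 0.000147). Ooep was lower in all 5 D10 TE libraries than in all E4 TE libraries, while the ICM groups met at 1 library each. Leaving out any 1 library gave 3.74 to 4.24. Of 14 pairs of a member and a group with at least 10 pooled counts, 0 had a library past the cutoff of Dixon's test. That cutoff is a gap to the next library above 0.71 of the range of the 5. Khdc3 in D10 ICM came nearest, at 0.679, through replicate 3 (199 CPM).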

How the results depend on the processing

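The falls of Khdc3 in ICM (-3.00 to -2.35) and TE (-4.28 to -3.68) and of Ooep in TE (-5.06 to -4.57) kept their direction and call with each library left out. The number of members called was 2 for D10 against E4 in ICM, 1 with thinned libraries and 1 to 2 with a library left out. In TE it was 2, and 2 to 3 with a library left out. For ICM against TE at D10 it was 3, with 5 without the filter, 1 with thinned libraries and 2 to 4 with a library left out. At E4 it was 2, with 4 without the filter, and 1 each with limma voom, thinned libraries or the zona litters left out. For the difference of the changes it was 1, with 2 without the filter and 0 with thinned libraries. Thinning leaves fewer counts for every gene: over all genes 1643, 1513, 2165, 1771 and 346 calls (D10 against E4 in ICM and in TE, the tissues at E4 and at D10, the difference of the changes) became 452, 419, 688, 530 and 66. A minimum of 30 gave 1003, 1404 and 1170 calls for D10 against E4 in TE and the tissues at E4 and D10, over fewer genes. The difference of the changes gave 538 without the filter and 198 without the zona litters, and the zona in TE 1 call, against 53 without the filter and up to 6 otherwise (ICM 0 and 41 without the filter).

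Litter as a block changed no member's call except that of Zp3 between tissues at D10. With that block Khdc3 was 1.61 at D10 (adjusted p = 0.00347) and Ooep 2.84 at D10 and -0.94 at E4 (edgeR adjusted p = 0.0164).

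Changes of sign were all in values that had not passed, and the cause was not tested. Khdc3 between tissues at E4 ran from -0.10 to 0.40 with a library left out. The Tcl1 difference of changes (-0.05) was 0.31 with DESeq2, 0.66 thinned, 0.13 with the litter block, 0.34 without zona litters, and -1.08 to 2.22 with a library left out. The Ooep zona difference in TE (0.16) was -0.22 thinned, -0.042 with ICM and TE of a litter summed, and -0.55 to 0.66 with a library left out. Without the filter and with a library left out, Tle6 ran from -0.13 to 0.98 over time in TE and from -0.0157 to 1.03 between tissues at D10, Zbed3 from -0.23 to 0.77 between tissues at D10 (-0.18 without D10 ICM replicate 4, -0.21 without D10 TE replicate 2), and Gdf9 from -1.58 to 1.17 over time in TE. Gdf9 between tissues at E4 was -0.018 without filter and zona litters. Depth limits Padi6, Gdf9, Tle6 and Zbed3, with at most 10 counts in a group.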
